A study of Mus musculus with 8 samples.

Results

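The results concern 10 genes whose products let CD8 T cells act on other cells: the cytokine genes Ifng, Lta and Csf2, the chemokine genes Xcl1, Ccl1, Ccl3, Ccl4 and Ccl5, and the death ligand genes Tnfsf10 and Fasl. They were taken by symbol from a table of 41730 genes and other features, and all 10 symbols were present. The RNA came from OT-I CD8+ T cells of mouse, which carry a transgenic receptor for SIINFEKL, a peptide of ovalbumin. They were sorted by flow cytometry after culture with bone marrow-derived dendritic cells carrying that peptide. All cultures thus held OT-I cells and peptide-loaded dendritic cells. The control cultures contained the solvent DMSO (4 libraries, replicates 1 to 4) and the treated cultures 2 µM RGX-104 (4 libraries, replicates 5 to 8), a compound that activates liver X receptors (LXR), nuclear receptors that sense sterols. The agonist was in the whole co-culture, so an action on the T cells and one through the dendritic cells cannot be told apart.

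An activated CD8 T cell releases interferon gamma, which raises antigen presentation and antimicrobial genes in cells that carry its receptor. It secretes chemokines that draw dendritic cells, monocytes and other T cells, and it shows the death ligands FASL and TRAIL, which start caspase cascades in cells with matching receptors. These genes are switched on by T cell receptor signals, and several of their mRNAs are short-lived.

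Total counts were 13144704 to 15966972 per library. The mean total was lower in RGX-104 by an amount that gave an exact two-sided permutation p = 0.0571 (n = 4 per group). CD8 T cell markers identified the sorted cells: Cd8a, Cd8b1, Cd3d, Cd3e and Thy1 were each at 94.7 CPM or more in the control mean. Cd3g was lower, at 22.3 CPM in the control mean, and Cd2 was listed at 0 in every library. CPM are counts scaled to library size, with TMM factors. Nothing in the labels ties the libraries to separate cultures or animals. The p-values therefore measure the spread between libraries alone, and that spread may be technical.

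Of the 10 genes, 3 rose with RGX-104 and none fell: Ifng, Ccl1 and Tnfsf10. Ifng rose 1.43-fold, Ccl1 2.23-fold and Tnfsf10 1.44-fold. Xcl1, Ccl3, Ccl4, Ccl5 and Fasl did not pass the test, and Lta and Csf2 had too few reads to be tested. The test was edgeR's quasi-likelihood test with Benjamini-Hochberg adjustment over 12162 genes, at an adjusted p of 0.05, and it called 0.888% of all tested genes higher and 1.78% lower, 2.66% in all. In the 3 that rose, every RGX-104 library lay above every control library, an arrangement that 3.88% of all tested genes showed in that direction. The reverse arrangement was found in none of the 8 tested members and in 4.32% of all tested genes. The median log2 fold change of the 8 tested genes was 0.43, against 0.0028 over all tested genes. Each of these 8 had reads in every library of both groups. Without RGX-104 replicate 7, only Ifng was still called, and without control replicate 4 the called genes were Ifng, Xcl1, Ccl1 and Ccl3.

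**Figure D1:**
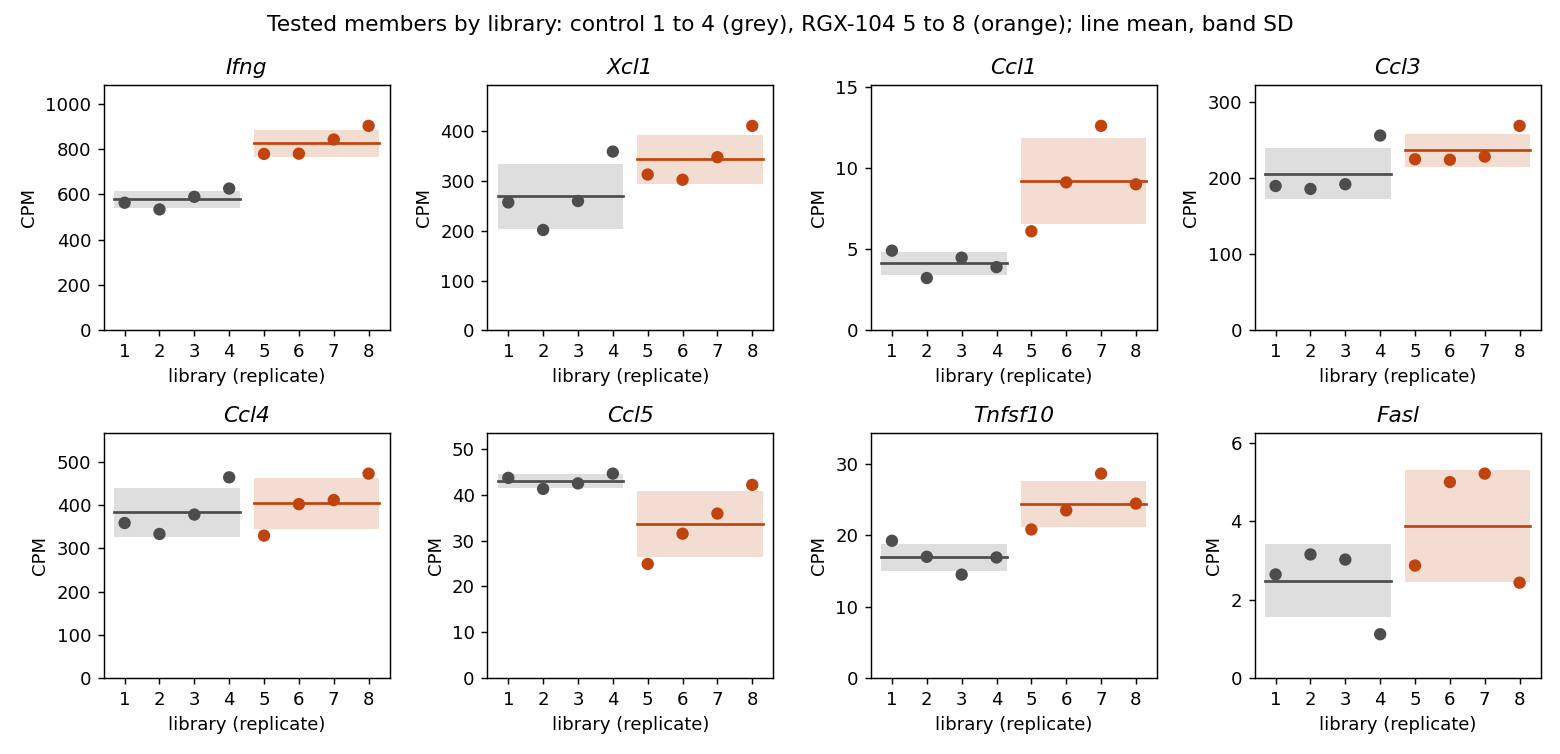
TMM-scaled CPM (y axis, from 0) of the 8 tested genes in each library (x axis), with control libraries 1 to 4 in grey and RGX-104 libraries 5 to 8 in orange; lines are group means and bands the SD. The groups are apart for Ifng, Ccl1 and Tnfsf10 and overlap for the other genes.

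Ifng encodes interferon gamma, the main macrophage-activating cytokine of CD8 T cells (chromosome 10, 118441046 to 118445894 in GRCm38.p6, as are the positions of the other genes). Its level was 563, 534, 590 and 626 CPM in control libraries 1 to 4. In RGX-104 libraries 5 to 8 it was 779, 780, 842 and 902 CPM. The lowest treated library therefore stood well above the highest control, and the gap between groups exceeded the SD of either (39.1 in control and 59.2 in RGX-104). The log2 fold change was 0.51 ± 0.06 (SE; edgeR adjusted p = 2.67e-06). It ranged from 0.47 to 0.56 over all alternatives, and each of them called it. Exons of Ifng overlap those of Gm49751, a provisional gene model on the same strand, over 336 bp in GENCODE M21, so reads there cannot be assigned with certainty.

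Ccl1 encodes a chemokine of activated T cells whose receptor is CCR8 (chromosome 11, 82176666 to 82179812). It was low, with 48 to 76 reads per control library and 87 to 188 per RGX-104 library. These were 4.91, 3.23, 4.48 and 3.90 CPM in control and 6.10, 9.11, 12.6 and 8.99 CPM in RGX-104. All treated libraries were above all controls, with replicate 7 the highest and replicate 5 the lowest of them. On the log2 scale Ccl1 rose by 1.15 ± 0.25 (edgeR adjusted p = 0.00993). Without replicate 7 it was 0.96 and no longer called (adjusted p = 0.0685), while adjusted p ranged from 0.00125 to 0.0685 over all alternatives.

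Tnfsf10 encodes TRAIL, a ligand that triggers apoptosis through death receptors (chromosome 3, 27317077 to 27339665). Control libraries held 19.2, 17.0, 14.5 and 16.9 CPM, and RGX-104 libraries 20.8, 23.5, 28.7 and 24.5 CPM. The groups did not overlap, but the highest control and the lowest treated library were close. Tnfsf10 rose on the log2 scale by 0.53 ± 0.14, with an edgeR adjusted p of 0.0476, just under the threshold. The call was lost in 8 of 14 alternatives, among them limma-voom (adjusted p = 0.0518), no filter on low counts (0.0621) and the omission of any one of control replicates 2, 3 and 4 or RGX-104 replicates 6, 7 and 8 (0.0892 to 0.181). The log2 fold change itself stayed between 0.44 and 0.60.

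The promoters of the 3 genes that rose are shown because motifs of T cell transcription factors and of LXR could be searched in them. Each is the 250 bases before the transcription start in RefSeq GRCm38.p6, written 5′ to 3′ on the gene's strand: Ifng at chr10:118440796-118441045 (plus), Ccl1 at chr11:82179813-82180062 (minus) and Tnfsf10 at chr3:27316827-27317076 (plus). Capitals mark the matches to the NFAT core GGAAA and, in Ccl1, to the NF-kappaB pattern, GGG and CC with 5 bases between them, each on either strand.
Ifng: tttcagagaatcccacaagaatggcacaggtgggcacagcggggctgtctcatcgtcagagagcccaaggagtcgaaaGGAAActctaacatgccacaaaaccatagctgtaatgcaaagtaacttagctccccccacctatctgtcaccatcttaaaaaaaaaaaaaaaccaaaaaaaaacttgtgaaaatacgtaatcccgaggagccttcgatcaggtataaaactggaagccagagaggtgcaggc
Ccl1: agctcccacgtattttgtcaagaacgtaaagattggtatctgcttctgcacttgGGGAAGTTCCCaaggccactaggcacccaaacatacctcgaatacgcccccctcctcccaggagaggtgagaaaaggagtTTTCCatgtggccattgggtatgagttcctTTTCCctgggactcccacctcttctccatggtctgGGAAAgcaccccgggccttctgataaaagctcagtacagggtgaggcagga
Tnfsf10: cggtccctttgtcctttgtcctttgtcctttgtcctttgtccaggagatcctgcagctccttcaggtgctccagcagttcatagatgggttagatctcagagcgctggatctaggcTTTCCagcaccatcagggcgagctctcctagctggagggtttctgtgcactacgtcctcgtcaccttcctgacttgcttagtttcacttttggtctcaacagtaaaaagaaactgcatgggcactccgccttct

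The reference table of promoters held 8 of the 10 genes, without Ccl4 and Ccl5. The NFAT core was in all 8, against 55.6% of 32841 promoter windows of the same length. Ccl1 had 3 copies of it, and Ifng and Tnfsf10 had 1 each. The NF-kappaB pattern was in 3 of the 8 (Lta, Ccl1 and Fasl), against 45.8% of windows. The Lta window, at chr17:35205352-35205601 (minus), lies mostly inside the RefSeq span of the gene, which starts at 35205578 on that strand. The Lta matches to both patterns fall within that span. In Ccl1 its matches on the 2 strands overlap in GGGAAGTTCCC. The T-box core TCACACC was in Xcl1 alone, against 3.33% of windows, and the AP-1 pattern TGANTCA was in none of the 8, against 6.75%. An LXR response element, here a direct repeat of AGGTCA or GGGTCA with 4 bases between them, was in none of the 8 windows and in 0.0335% of all windows. A match describes letters in these windows and no more.

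Xcl1, Ccl3 and Ccl4 are chemokine genes that CD8 T cells switch on after receptor engagement. XCL1 attracts the dendritic cells that cross-present antigen through their receptor XCR1. Xcl1 (chromosome 1, 164931644 to 164935522) was at 257, 201, 259 and 358 CPM in control and 312, 302, 347 and 410 CPM in RGX-104. Control replicate 4 overlapped the treated range, and the other 3 controls lay below it. Its log2 fold change was 0.35 ± 0.11 (edgeR adjusted p = 0.132). Without control replicate 4 it was 0.52 ± 0.09 with an adjusted p of 0.00290, the only one of its alternatives that called it (range over all of them 0.00290 to 0.411). Its exons overlap those of Gm20743 on the opposite strand over 98 bp, and as the strand setting of the counting is not known, reads there cannot be told apart.

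CCL3 and CCL4 are inflammatory chemokines that attract monocytes and T cells. Ccl3 (chromosome 11, 83647843 to 83649378) was at 190, 186, 192 and 256 CPM in control and 225, 225, 229 and 269 CPM in RGX-104. Again control replicate 4 was the one control inside the treated range. The log2 fold change was 0.20 ± 0.08 (edgeR adjusted p = 0.283). Without control replicate 4 it was 0.32 ± 0.07 and called (adjusted p = 0.0112, range over all alternatives 0.0112 to 0.597).

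Ccl4, whose span in RefSeq (chromosome 11, 83648624 to 83664683) overlaps that of Ccl3, was at 358, 333, 378 and 464 CPM in control. In RGX-104 it was at 329, 402, 411 and 472 CPM. The groups overlapped across nearly their whole range, and RGX-104 replicate 5 was the lowest of all 8 libraries. The log2 fold change was 0.07 ± 0.09 (edgeR adjusted p = 0.781), and it was -0.0086 without RGX-104 replicate 8.

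Ccl5 encodes RANTES, a chemokine that memory and late effector cells make in large amounts (chromosome 11, 83525778 to 83530518). It was the one tested gene of the 10 with a negative estimate. Control libraries were close together at 43.7, 41.3, 42.5 and 44.6 CPM, whereas RGX-104 libraries spread over 24.9, 31.5, 35.9 and 42.1 CPM. Of the 4 treated libraries, 3 lay below all controls and replicate 8 lay within their range. The log2 fold change was -0.36 ± 0.13 (edgeR adjusted p = 0.177, range 0.0580 to 0.357 over all alternatives).

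**Figure D2:**
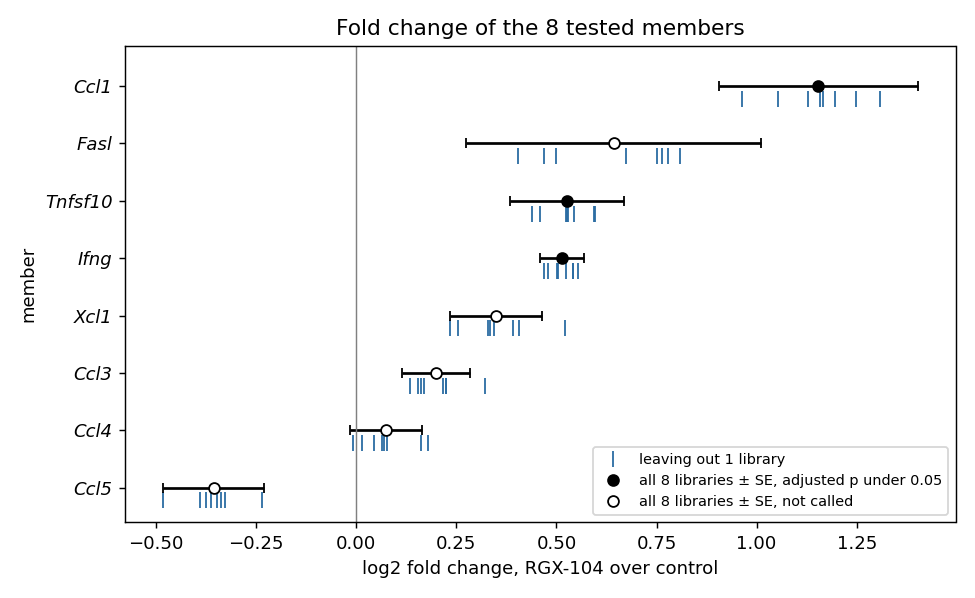
Log2 fold change of RGX-104 over control (x axis) for each tested gene (y axis), from all 8 libraries with its SE (circles, filled where the adjusted p was under 0.05) and after leaving out each library in turn (blue ticks). Ccl1 has the highest estimate and a wide SE, the ticks of Ifng stay between 0.47 and 0.56, and Ccl5 is the only gene with a negative estimate.

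Fasl encodes the ligand of the death receptor FAS (chromosome 1, 161780691 to 161788495). It had 17 to 48 reads per control library and 32 to 78 per RGX-104 library. Its levels were 2.65, 3.16, 3.03 and 1.12 CPM in control and 2.88, 5.01, 5.22 and 2.44 CPM in RGX-104. Replicates 6 and 7 were above all controls, and replicates 5 and 8 lay within the control range. The log2 fold change was 0.64 ± 0.37 (edgeR adjusted p = 0.464), an estimate larger than that of Ifng with an SE too wide to separate it from 0.

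Lta encodes lymphotoxin alpha (chromosome 17, 35203165 to 35205578) and Csf2 encodes GM-CSF, a growth factor for myeloid cells (chromosome 11, 54247270 to 54249899). Lta had 14 reads in control replicate 1 and 0 in the other 7 libraries. Its symbol appears in 3 further entries with a number appended, all at 0. Csf2 had 11 reads in RGX-104 replicate 6, 12 in replicate 8 and 0 elsewhere, with no repeated entry. A count of 0 in one library allows up to 3 reads, or 0.189 to 0.229 CPM, for counting error only. Neither gene passed the filter on low counts, and without it edgeR gave adjusted p of 0.313 for Lta and 0.135 for Csf2. Tnf and Ltb, TNF superfamily genes next to Lta, were also listed at 0 in all libraries, so the values of Lta are not read as absence of expression. The 0 counts of Csf2 are not read so either, because how reads were counted is not known.

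Within each group, Ifng and the chemokines Xcl1, Ccl3, Ccl4 and Ccl5 were highest in the same library. This was control replicate 4 among the controls and replicate 8 among the treated libraries, for each of the 5. Expressed as log2(CPM + 0.5) minus the group mean, control replicate 4 deviated by 0.12 for Ifng, 0.44 for Xcl1, 0.33 for Ccl3, 0.29 for Ccl4 and 0.05 for Ccl5. RGX-104 replicate 8 deviated by 0.13, 0.27, 0.19, 0.24 and 0.35 in the same order. Fasl went the other way, at -0.81 and -0.52 in these 2 libraries, from 17 and 32 reads. Ccl1 and Tnfsf10 did not follow the set: both had their highest treated value in replicate 7 and their highest control value in replicate 1. All values come from the same 8 libraries, and what the deviations share was not tested.

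**Figure D3:**
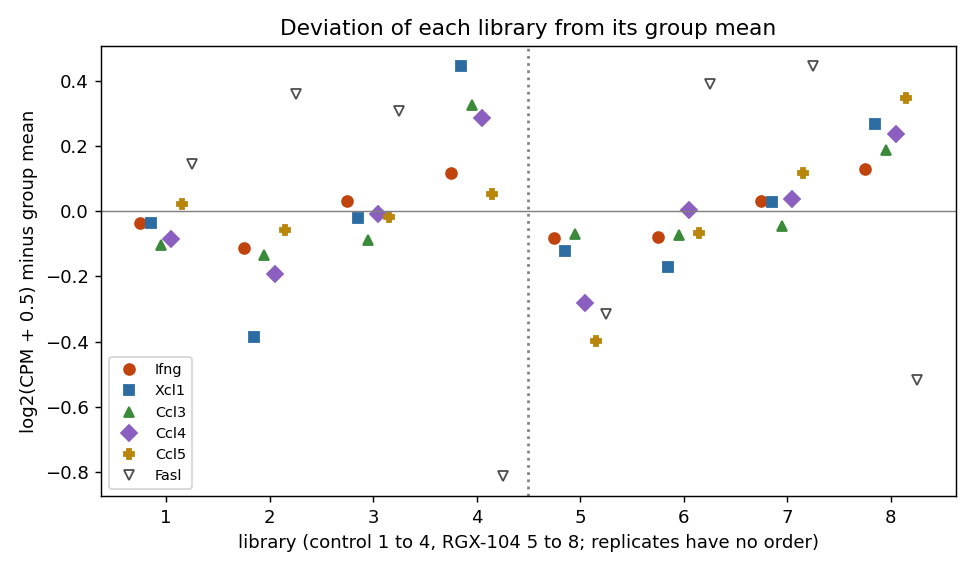
Deviation of each library from its group mean on the log2(CPM + 0.5) scale (y axis) by library (x axis) for Ifng, Xcl1, Ccl3, Ccl4, Ccl5 (filled symbols) and Fasl (open triangles). In control replicate 4 and RGX-104 replicate 8 the filled symbols lie above 0 and Fasl lies below it.

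Ifng was also set against each of the 5 chemokines within the same library, as a ratio of counts that needs no scaling. This comparison was chosen after the values above were seen. There were 2.97, 2.87, 3.07 and 2.44 Ifng reads per Ccl3 read in control and 3.46, 3.47, 3.68 and 3.35 in RGX-104. Every treated library had the higher ratio. The mean log2 ratio was higher by 0.31 in RGX-104 (exact two-sided permutation p = 0.0286, the smallest that 4 against 4 libraries allow; 0.0476 adjusted over 5 pairs).

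Against Ccl4, the ratios were 1.57, 1.60, 1.56 and 1.35 in control and 2.36, 1.94, 2.05 and 1.91 in RGX-104, a log2 difference of 0.44 with the same exact permutation p. Against Ccl5 they were 12.9, 12.9, 13.9 and 14.0 in control and 31.3, 24.8, 23.5 and 21.4 in RGX-104, a log2 difference of 0.89, again with that p. The groups did not overlap in either case. Against Xcl1 the ratios were 2.20, 2.65, 2.27 and 1.75 in control and 2.49, 2.58, 2.43 and 2.20 in RGX-104. These overlapped, and the log2 difference of 0.14 gave an exact permutation p of 0.343. Against Ccl1 they were 115, 166, 132 and 161 in control and 128, 85.6, 66.9 and 100.4 in RGX-104. Here the treated libraries were mostly lower, with replicate 5 inside the control range, and the log2 difference of -0.61 gave an exact permutation p of 0.0571 (0.0714 adjusted). The ratio of Ifng to Ccl3, Ccl4 and Ccl5 was higher in RGX-104, and for Xcl1 and Ccl1 the difference did not pass the test. All these ratios share the Ifng counts and restate the fold changes given above, so their p-values are not separate support. Without RGX-104 replicate 5, the treated library inside the control range, the difference against Ccl1 was -0.77 with an unadjusted exact permutation p of 0.0286. In the other 7 of 8 omissions it did not pass, with an exact permutation p of up to 0.114.

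**Figure D4:**
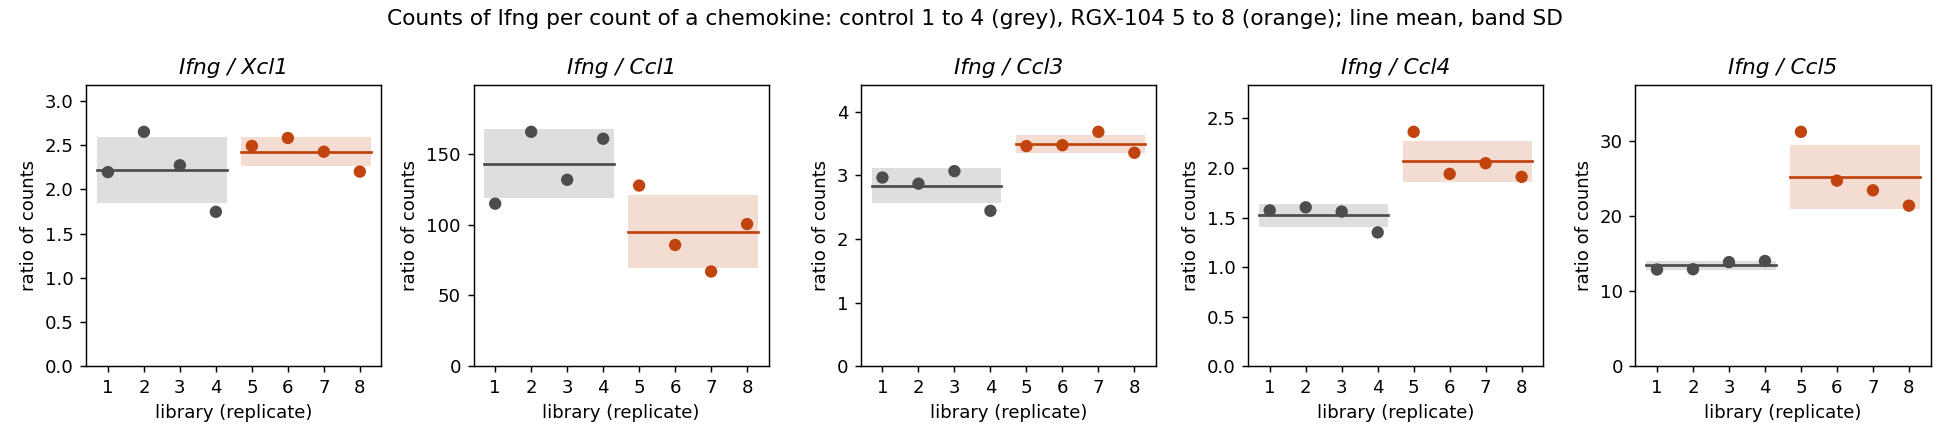
Ifng counts divided by counts of Xcl1, Ccl1, Ccl3, Ccl4 or Ccl5 (y axes, from 0) in each library (x axes), control in grey and RGX-104 in orange, with group means (lines) and SD (bands). All treated libraries lie above all controls for Ccl3, Ccl4 and Ccl5, and the groups overlap for Xcl1 and Ccl1.

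The AU-rich pentamer ATTTA in the 3′ untranslated region marks many cytokine mRNAs for decay, so its occurrence was counted in 1 GENCODE M21 transcript per gene. It was in 8 of the 10 genes, against 64.7% of 21021 protein-coding genes. Csf2 had 9 copies in 317 bases, Tnfsf10 8 in 3998, Ifng 6 in 631 and Ccl3 5 in 409. Ccl1 and Ccl5 had 0. At least 5 copies were in 4 of the 10 genes, against 21.3% of the protein-coding genes. Any link between these counts and the changes with RGX-104 was not tested. The densest 30 bases of 3 genes, with pentamers in capitals, show separate copies in Ifng and Ccl3 and a run of overlapping copies in Csf2. They lie at chr10:118445330-118445359 (plus), chr11:83648085-83648114 (minus) and chr11:54247329-54247358 (minus) in GRCm38.
Ifng: aacctATTTAttaatATTTAaaactATTTA
Ccl3: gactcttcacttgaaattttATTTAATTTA
Csf2: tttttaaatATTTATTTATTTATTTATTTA

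Lists of genes that sense these ligands were read beside the 2.66% of all tested genes that edgeR called. Of 10 tested genes of interferon gamma receptor signalling none was called by edgeR, and 6 had an unadjusted p under 0.05 (median log2 fold change -0.09). Over all tested genes 13.8% had an unadjusted p under 0.05, the background for each such count. The phosphatase gene Ptpn6 had 0.19 (adjusted p = 0.0669; called by DESeq2 with an adjusted p of 0.00951) and Socs1, a feedback inhibitor, 0.29 (adjusted p = 0.193). Of 20 tested interferon gamma response genes, 1 rose and none fell (median -0.09), while DESeq2 and edgeR without control replicate 4 each called 1 lower. The gene that rose was Irf8, a transcription factor, from 932 ± 33.6 to 1095 ± 20.5 CPM (SD, n = 4; log2 fold change 0.23 ± 0.04, edgeR adjusted p = 0.00167). Another 6 genes of this list, Psmb8, Psmb9, Tap1, Tap2, Tapbp and H2-D1, were listed at 0 in all libraries and could not be assessed.

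Of 7 tested receptors for the chemokines and cytokines, edgeR called none, and 2 had an unadjusted p under 0.05. Tnfrsf1b, a receptor for TNF and lymphotoxin alpha, averaged 43.2 CPM in control libraries and 52.0 CPM in treated ones (log2 fold change 0.27 ± 0.10, adjusted p = 0.189). None of these receptors was called by DESeq2 or limma-voom. Among 18 tested death receptor and caspase 8 pathway genes, the median log2 fold change was -0.06. Cflar, an inhibitor of caspase 8, fell from 88.4 ± 4.83 to 71.7 ± 4.19 CPM (adjusted p = 0.0292). Its call was lost in 6 of 14 alternatives, without control replicate 1, 3 or 4 or RGX-104 replicate 5, 6 or 8.

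Other secreted and membrane-bound ligands were read beside the same share of all tested genes, 2.66%. Of 12 tested cytokine genes of T cells, Il16, which encodes a chemoattractant for CD4 cells, fell from 16.5 to 11.0 CPM and none rose. Its log2 value was -0.59 ± 0.16 with an edgeR adjusted p of 0.0428, a call lost in 8 of 14 alternatives (no filter on low counts, and without any one control replicate or RGX-104 replicate 5, 6 or 7). Of 11 other tested chemokines edgeR called none, and 2 had an unadjusted p under 0.05 (median -0.27). These were Ccl22, at 3.66 CPM in control and 1.61 CPM after treatment, and Cxcl10, at 9.18 and 5.86 CPM. Of 6 other tested TNF superfamily ligands none was called, and 1 had an unadjusted p under 0.05, Tnfsf14, with a log2 fold change of 0.35. Neither DESeq2 nor limma-voom called a gene of these last 2 lists.

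Among regulators of the cytokine genes, most of those called were higher in RGX-104. Of 29 tested transcription factors of effector cytokine genes, 6 rose and 1 fell, against 0.888% and 1.78% of all tested genes. Their median log2 fold change was 0.02, and the 4 with the smallest p are named here. Without control replicate 2 the number called higher was 3. Eomes, which with T-bet drives Ifng in CD8 T cells, rose from 118 ± 14.4 to 181 ± 2.47 CPM (log2 fold change 0.62 ± 0.07, edgeR adjusted p = 1.13e-05). Irf4 (0.24) and Nr4a3 (0.36), both induced by the T cell receptor, rose as well, and the AP-1 component Jun had -0.35 (adjusted p = 0.00713). Of 12 tested cytokine receptors upstream of Ifng only Il2rb, the beta chain of the IL-2 and IL-15 receptors, rose, from 401 ± 21.2 to 497 ± 12.7 CPM (adjusted p = 0.000479). Of 16 tested regulators of cytokine mRNA decay edgeR, DESeq2 and limma-voom called none, and 4 had an unadjusted p under 0.05 in edgeR. Elavl1, which encodes the stabilising protein HuR, had 0.18 (adjusted p = 0.134). Cnot8 had -0.92 ± 0.38 (edgeR adjusted p = 0.264), from 366 reads over all libraries. In this list 10 estimates were positive and 6 negative, with a median log2 fold change of 0.04.

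**Figure D5:**
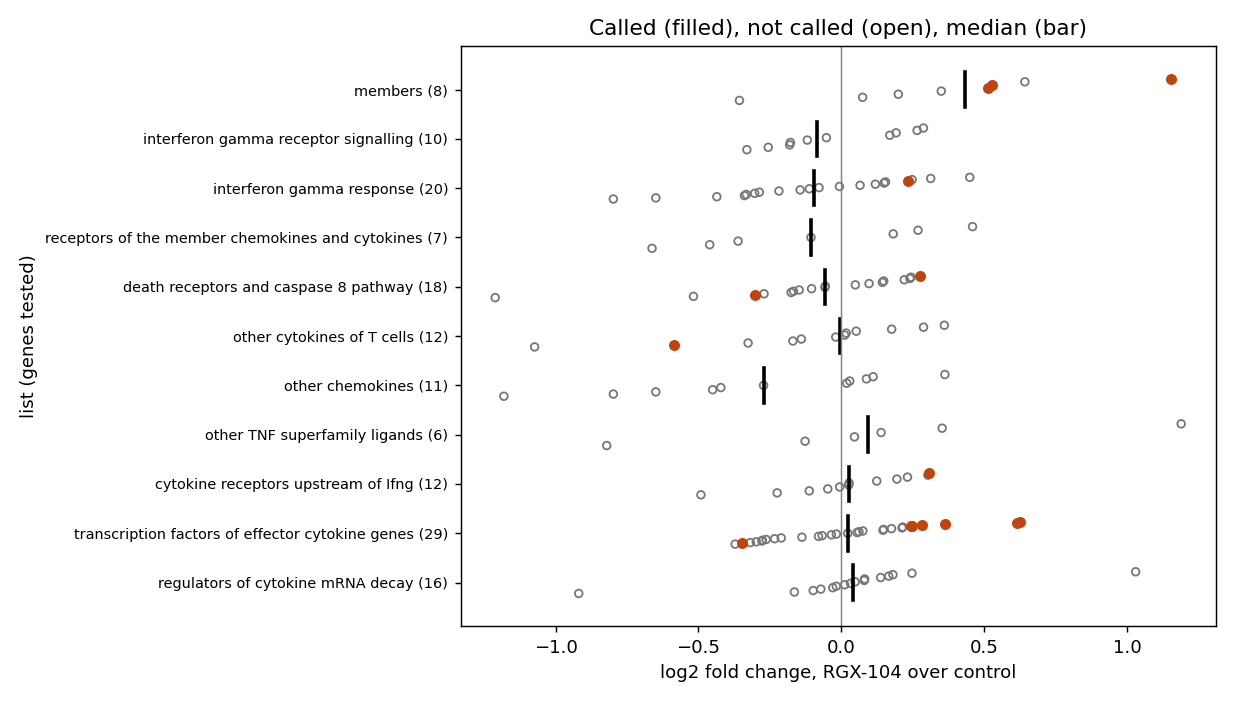
Log2 fold change of RGX-104 over control (x axis) of every tested gene in the member set and in each pathway list (y axis, number tested in brackets); filled points passed the test, open points did not, and the bar is the list's median. The members' median is 0.43, while the medians of the other lists lie between -0.27 and 0.09.

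Markers of other cells that make these ligands were measured in the same libraries. Without Batf3 and Ccr7, which T cells also express, dendritic cell and macrophage markers took 0.0139% ± 0.000599 of reads in the controls and 0.0139% ± 0.00101 after treatment (SD, n = 4), a difference smaller than either SD. None of the 9 tested dendritic cell markers or the 9 tested macrophage markers was called by edgeR. These 9 dendritic cell markers include Batf3 and Ccr7. Of them 6 had a negative estimate (median log2 fold change -0.30, the value of Batf3). An unadjusted p under 0.05 was found for 3, all lower in RGX-104. They were Batf3, at 72.0 CPM in control and 58.6 CPM after treatment (adjusted p = 0.0612), Fscn1, at 4.23 and 2.37 CPM (0.224), and Ccl22, at 3.66 and 1.61 CPM (0.165). The share above is mostly Cst3 and Ctss, and the part of dendritic cell RNA in the members' values was not tested. H2-Aa, H2-Ab1 and H2-Eb1 were listed at 0 in all libraries. Of the NK cell markers, which summed to 237 to 287 CPM in control and 267 to 307 CPM in RGX-104, nearly all reads were Nkg7, a gene of CD8 effectors too. The NK receptor gene Ncr1 had 7 reads over all 8 libraries. CD8 T cell markers summed to 1793 to 1829 CPM in control and 2125 to 2190 CPM in RGX-104. Of 9 tested, 4 were called higher, against 0.888% of all tested genes. These 4 differed between the groups in the same direction as Ifng. Whether they followed Ifng from library to library, and their part in the result, were not tested. In bulk RNA, a change in the number of producing cells and one in the RNA per cell cannot be told apart.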

How the data were processed

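Per the labels' protocols, the library kit was Lexogen 3′ FWD, which reads transcripts near their 3′ ends. The table the authors deposited holds raw counts as whole numbers. The submitters' processing notes name GRCm38, STAR 2.7.8a, DESeq2 1.4 and R 4.1.0. How reads were counted (tool, strand, annotation, molecular identifiers) is not given in the sources used here. Columns were matched to samples by number and group word in the titles, and 0 columns belonged to other series.

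The test was that of edgeR 4.0.16 under R 4.3.3 (filterByExpr, TMM, glmQLFTest, group as the only term, all 8 libraries, two-sided, Benjamini-Hochberg over 12162 genes). The SE is the log2 fold change divided by the square root of F. The biological coefficient of variation was 14.5%. Squared differences between 2 libraries of a group averaged 6.60 to 10.1 times those that counting noise alone would give. Scripts were tested on simulated data. Alternatives were DESeq2 1.42.0, limma-voom (limma 3.58.1), DESeq2 size factors, library size only, no filter, robust dispersion and leaving out each library.

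The members, gene lists and tests were chosen with earlier results of these data known. All members were named, as were up to 4 called genes of each list or, where none was called, the 2 with the smallest p. Further names were chosen after their values were seen (list genes at 0, genes lost or gained by an alternative and cell markers). Positions and promoters came from RefSeq GRCm38.p6. No protein sequences were used here, and the values of 2 genes of the lists are not reported here.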

Additional observations from a re-analysis of the deposited data

Results flagged for a closer look

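In 4 of 30 groups of 4 libraries, 1 library stood apart from the other 3 by Dixon's criterion. Chance flags about 1 in 20 of independent groups. The groups here share libraries, and that rate does not hold for Lta and Csf2, which have libraries at 0. Ccl3 in control replicate 4 was at 256 CPM, against 186 to 192 in the other controls. Ccl3 in RGX-104 replicate 8 was at 269 CPM, against 225 to 229 in the other treated libraries. The ratio of Ifng to Ccl4 reads in control replicate 4 was 1.35, against 1.56 to 1.60 in the other controls. Lta in control replicate 1 was at 0.904 CPM, from 14 reads, against 0 in the other controls.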

How the results depend on the processing

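Ifng kept its direction and call in all 14 alternatives. DESeq2 called 181 genes higher. Leaving out 1 library at a time gave 57 to 93 genes called higher over all genes and 1 to 4 members called higher. It moved the log2 fold change of Ccl4 between -0.0086 and 0.18. Of the single-gene values under the alternatives, 403 kept direction and side of the threshold, 39 lost the call, 4 gained it and 1 reversed. The cause was not tested, although the fits without a library rest on fewer samples. The difference in total counts (RGX-104 minus control) ran from -1464114 without RGX-104 replicate 7 (exact permutation p = 0.0286) to -863170, and that in the percent of dendritic cell and macrophage marker counts from -0.000388 without RGX-104 replicate 8 (-0.000207 without control replicate 2) to 0.000334. The labels number the libraries serially across both groups and do not say whether any are paired, so no paired analysis was run. Lta, Csf2, Fasl and Ccl1 had the fewest reads of the members.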

Other observations

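The 5 genes whose log2 CPM followed that of Ifng most closely over the 8 libraries, of those tested with a mean of at least 20 counts, were Pom121 (Pearson r = 0.992), Rrp1b (0.982), Srsf9 (0.977), Dus1l (0.975) and Crlf3 (0.971). The values share libraries and include the difference between groups, and they are given as a description. The changes of these genes were small. Srsf9, a splicing factor, went from 199 ± 7.10 to 236 ± 13.9 CPM (log2 fold change 0.25, edgeR adjusted p = 0.0181), and Crlf3 from 103 ± 3.00 to 123 ± 3.44 CPM (0.25, adjusted p = 0.0261). Leaving out 1 library at a time ended the call of Srsf9 in 3 alternatives and that of Crlf3 in 7. Pom121, a nuclear pore protein gene, had a log2 fold change of 0.18 and did not pass the test (adjusted p = 0.159). None of the other members was among the 5.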
